A study of Mus musculus with 15 samples.

Results

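The enzymes that make prostaglandins and leukotrienes, and 1 that inactivates prostaglandins, are described here across 5 treatments of the mouse line RAW264.7, whose cells resemble macrophages. The 10 genes are Pla2g4a, Ptgs1, Ptgs2, Ptges, Ptges2, Tbxas1, Alox5, Alox5ap, Ltc4s and Hpgd, chosen by name among the 36870 gene names on the array. Every noncontrol probe carrying one of these gene names was taken, which gave 17 of the 56605 noncontrol probes. Of the 17 probes, 13 probes of 8 genes were well above background on at least 2 of 3 arrays of some group and were tested, among 28508 tested probes of 19506 genes in all. The 2 genes left untested, Tbxas1 and Hpgd, are described below by their signals only.

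The labels put 3 arrays in each of 5 groups. The vehicle group is labelled with the solvents ethanol and DMSO only. The other groups received dexamethasone (DEX), fluticasone furoate (FF), VSG158 or VSG159, each a glucocorticoid given at 100 nM for 1 h before lipopolysaccharide (LPS, 1 ug/ml for 16 h). The LPS protocol stands in the labels of all 15 samples, and it is taken to hold for the vehicle arrays too, although their own titles name no LPS. No group without LPS was part of the comparison, so every difference below is between cells given a steroid and cells given solvent, all recorded as LPS-stimulated. The series' text speaks of duplicates where the labels give 3 replicates, and nothing says whether the replicates were separate cultures, so the p-values measure the spread between these samples, which may be technical. RAW264.7 is 1 transformed line, and in such a bulk sample fewer cells of a type and less RNA per cell cannot be told apart.

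Prostaglandins and leukotrienes are both made from arachidonic acid. Cytosolic phospholipase A2 (Pla2g4a) frees the fatty acid from membranes. The cyclooxygenases then convert it to prostaglandin H2, which terminal synthases turn into prostaglandin E2 or thromboxane, while 5-lipoxygenase with its activating protein converts it to leukotriene A4. Macrophages stimulated with LPS are known to induce the cyclooxygenase Ptgs2 and the E synthase Ptges, and glucocorticoids are classic inhibitors of this induction.

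All 15 arrays held 62976 spots. Of the noncontrol spots 39.6% to 50.4% were well above background, and no member spot was saturated. Arrays of the same group correlated at r = 0.96 to 0.99 over the tested probes. Of 8 macrophage markers, 8 were well above background on some array and 7 on all 15, with a summed signal of 627 to 693 times the 75th percentile. The sum hides single changes, since with each steroid 2 of the 8 were called higher and 3 lower than with vehicle. The shares of all tested genes called are given below. Of the markers of other cells, 3 of 8 for neutrophils and mast cells, 4 of 5 for T and B cells, 2 of 4 for fibroblasts and 2 of 4 for epithelium were above background on some array. Elane (neutrophil elastase), Cd3e (T cells) and Dcn (fibroblasts) were above background on all 15, and the neutrophil and mast cell list summed to 38.6 to 77.0, chiefly Elane. The part of these markers in the results was not tested. Slide 1 carried vehicle, VSG158 and replicates 1 and 2 of VSG159. Slide 2 carried DEX, FF and replicate 3 of VSG159. Vehicle was therefore never on a slide with DEX or FF, and those 2 comparisons rest on VSG159 replicate 3 where slide is a fixed block. With slide as a fixed block the same holds for VSG158 and VSG159 against DEX or FF. The array positions also differed between groups.

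Levels are log2 signals relative to each array's 75th percentile, so a level of 0 equals that percentile and a difference of 1 is a 2-fold difference. They are compared between arrays for 1 probe at a time, never between probes. A difference was called where limma's adjusted p (Benjamini-Hochberg over all 28508 probes) was under 0.05, and a gene was counted by its brightest tested probe.

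Against vehicle, the brightest probes of Ptgs2 and Ptges were called lower, and those of Ptges2, Alox5 and Alox5ap higher, with all 4 steroids. That of Pla2g4a was called lower with 3 of the 4. Vehicle shared no slide with DEX or FF. All 4 Ptges calls were lost with median scaling, and its other probes were called with VSG159 at most. Ptges2 with DEX turned to -0.11 with slide as a fixed block. With DEX 5 of the 8 tested genes were called, 3 higher and 2 lower. With FF, VSG158 and VSG159 6 of 8 were called in each case, 3 higher and 3 lower. Ptgs1 and Ltc4s were called with none of the 4 steroids. These counts stand against a wide background, since the share of all tested genes called was 46.4% for DEX (23.2% higher, 23.1% lower), 42.2% for FF (20.8% higher, 21.4% lower), 44.4% for VSG158 (19.7% higher, 24.6% lower) and 44.0% for VSG159 (19.1% higher, 24.9% lower). The median difference over the 8 genes, in the order DEX, FF, VSG158, VSG159, was 0.10, 0.19, 0.19 and -0.04, beside 0.03, -0.05, -0.06 and -0.06 over all tested genes. All 4 comparisons share the same 3 vehicle arrays, so the likeness of their directions is not 4 separate observations.

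**Figure D1:**
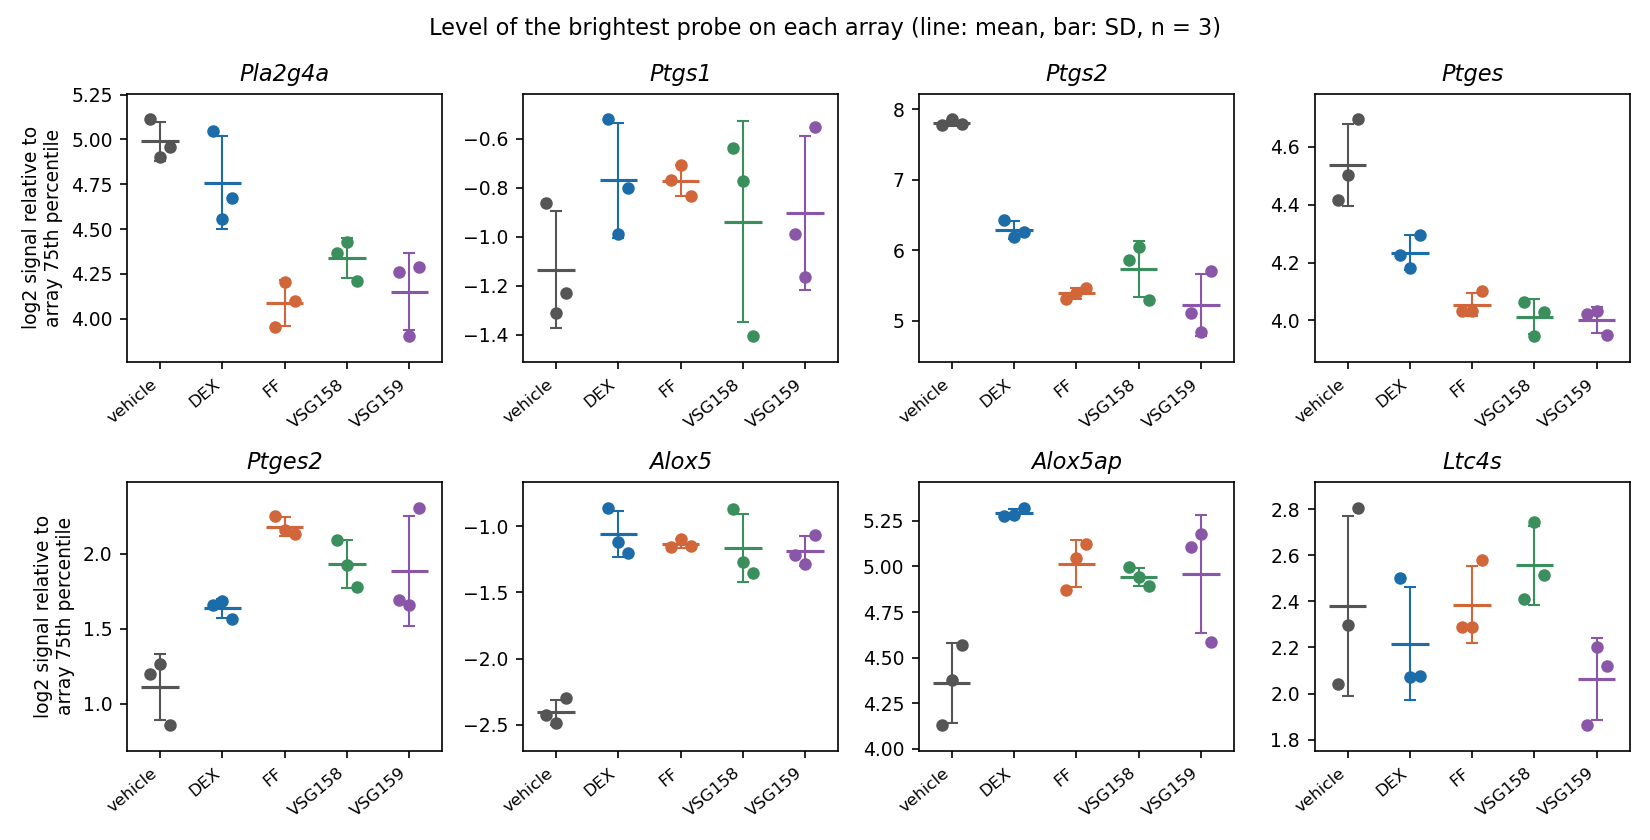
Level of the brightest probe of each of the 8 tested genes on every array, as log2 signal relative to the array's 75th percentile (vertical axis, a separate scale for each gene), for vehicle, DEX, FF, VSG158 and VSG159. Points are single arrays, lines group means and bars SD (n = 3). The 3 vehicle arrays of Ptgs2 sit between 7.78 and 7.86, above all 12 steroid arrays, and those of Alox5 between -2.48 and -2.30, below all 12.

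Ptgs2 encodes cyclooxygenase-2, the inducible enzyme that commits arachidonic acid to prostaglandins. Its 1 probe lies on chromosome 1 at chr1:151954744-151954803 (mm9, plus strand), 60 bases long, and is shown by its first 30 bases to identify what was measured. The probe's sequence and the 250 bases before the RefSeq start of Ptgs2 (GRCm38.p6, chr1:150099781-150100030, plus strand) follow. In the promoter, capitals mark matches to the motifs searched.
Ptgs2 probe: tttttgaaaagtttgaagttagaacttagg
Ptgs2 promoter: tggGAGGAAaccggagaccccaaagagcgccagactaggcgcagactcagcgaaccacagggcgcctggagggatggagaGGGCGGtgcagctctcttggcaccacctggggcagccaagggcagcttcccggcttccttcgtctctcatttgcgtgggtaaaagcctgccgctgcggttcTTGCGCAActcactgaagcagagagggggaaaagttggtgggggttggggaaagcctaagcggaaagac

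The vehicle arrays gave Ptgs2 levels of 7.78, 7.86 and 7.79. DEX arrays gave 6.43, 6.19 and 6.26, and FF arrays gave 5.31, 5.40 and 5.46. VSG158 arrays gave 5.87, 6.05 and 5.30, and VSG159 arrays gave 5.12, 4.85 and 5.70. All 3 vehicle arrays lay above all 12 steroid arrays, and all 3 DEX arrays lay above all 9 arrays of the other steroids, while the arrays of FF, VSG158 and VSG159 overlapped each other. Ptgs2 fell by 1.52 on the log2 scale with DEX (SE 0.214, 2.86-fold, limma adjusted p = 0.000125). It fell by 2.42 with FF (5.34-fold, adjusted p = 2.33e-06), by 2.07 with VSG158 (4.20-fold, adjusted p = 8.78e-06) and by 2.58 with VSG159 (6.00-fold, adjusted p = 1.34e-06). In order of measured level the groups ran vehicle, DEX, VSG158, FF and VSG159, and of these neighbours VSG158 and FF, and FF and VSG159, overlapped. That order did not hold with slide as a fixed block, where the differences from vehicle, in the order DEX, FF, VSG158, VSG159, were -2.24, -3.14, -2.07 and -2.82, all called. On slide 1 alone, the VSG158 and VSG159 calls were kept. With slide and position both in the fit, the DEX difference was -1.35 and no longer called (adjusted p = 0.571). Its SE there was 0.77, against 0.214 without these terms, so the lost call does not show that the difference is absent.

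Ptges encodes microsomal prostaglandin E synthase-1, the inducible terminal synthase that works with cyclooxygenase-2. The array carries 3 probes for it on the minus strand of chromosome 2 (mm9), and they are shown because they differed in their calls. Probe 1 lies at chr2:30744995-30745054, from base 3583 of the transcript by the array's annotation, probe 2 at chr2:30747838-30747897, from base 740, and probe 3 at chr2:30748214-30748273, from base 364. The first 30 bases of each are given, with the 250 bases before the RefSeq start (GRCm38.p6, chr2:30903298-30903547, minus strand).
Ptges probe 1: atgataaaggactaaacctctgaacctgta
Ptges probe 2: gccacttacagatgagctgtcaagatttga
Ptges probe 3: aaccctctgatcgcctggatacatttcctc
Ptges promoter: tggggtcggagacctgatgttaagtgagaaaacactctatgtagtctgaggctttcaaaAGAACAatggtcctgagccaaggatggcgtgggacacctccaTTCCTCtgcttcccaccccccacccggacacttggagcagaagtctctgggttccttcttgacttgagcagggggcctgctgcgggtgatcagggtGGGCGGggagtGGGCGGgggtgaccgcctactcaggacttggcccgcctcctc

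On probe 1, the brightest, vehicle arrays gave 4.42, 4.50 and 4.69 and DEX arrays gave 4.23, 4.18 and 4.30. FF arrays gave 4.03, 4.03 and 4.10, VSG158 arrays 4.06, 3.95 and 4.03, and VSG159 arrays 4.02, 4.03 and 3.95. No steroid array reached the lowest vehicle array, and DEX arrays lay between vehicle and the other 3 steroids without overlap. Ptges probe 1 fell by 0.30 on the log2 scale with DEX (SE 0.0859, adjusted p = 0.0125), by 0.48 with FF (adjusted p = 0.000635), by 0.52 with VSG158 (adjusted p = 0.000343) and by 0.54 with VSG159 (adjusted p = 0.000289), limma throughout. The largest of these is a 1.45-fold difference. Median scaling ended the call for all 4 steroids (adjusted p = 0.291, 0.181, 0.064 and 0.146 in the same order). The DEX call was also lost with slide as a fixed block (-0.23, adjusted p = 0.261) or random block, with no filter, with only the groups compared, with slide and position, and without vehicle replicate 3 (-0.22, adjusted p = 0.0501), and the FF call with slide as a fixed block (-0.41, adjusted p = 0.0595) and with slide and position.

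Probe 2 of Ptges gave 1.37, 1.41 and 1.26 on vehicle arrays and ranged from 0.73 to 1.39 on steroid arrays. It was called with VSG159 only (-0.38, SE 0.139, limma adjusted p = 0.0413), with differences of -0.07 for DEX, -0.21 for FF and -0.33 for VSG158. Probe 3 gave -0.04, 0.82 and 0.90 on vehicle arrays and was called with no steroid, its differences running from -0.30 with VSG158 to 0.36 with VSG159. Only the probe nearest the transcript's end was called with all 4 steroids, and the difference between probes was not tested.

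**Figure D2:**
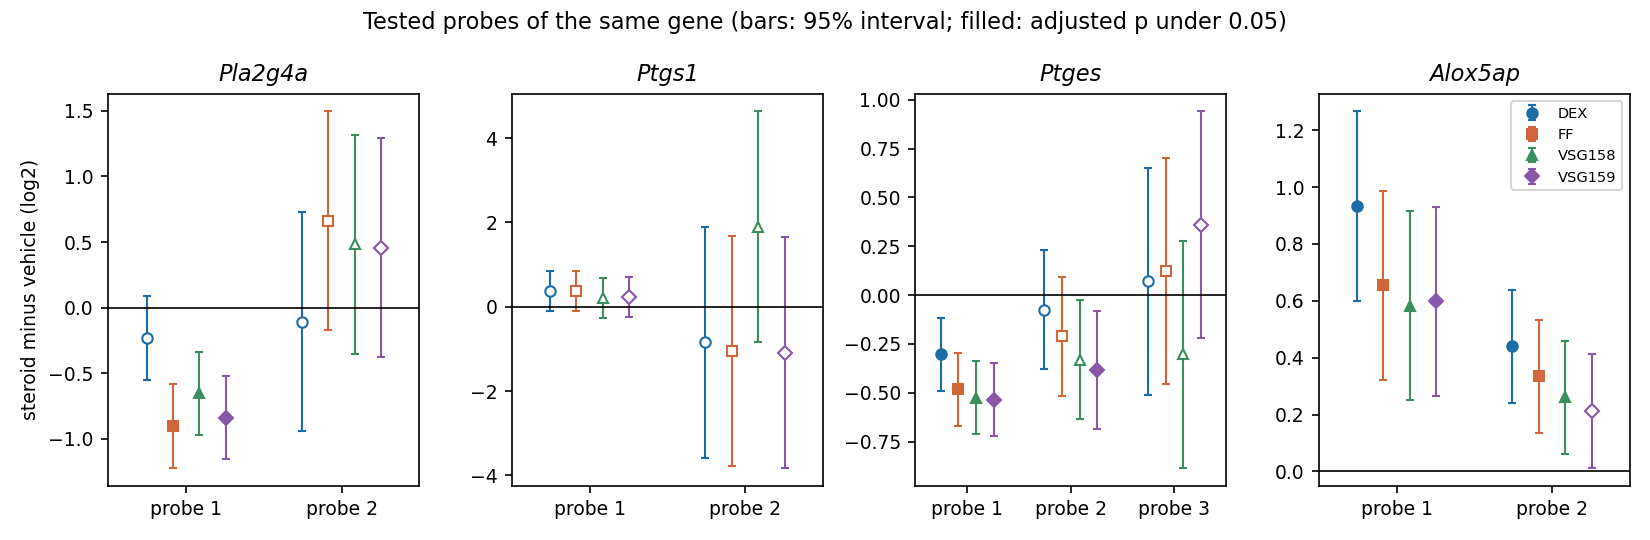
Difference of each steroid from vehicle (vertical axis, log2, a separate scale for each gene) for every tested probe of the 4 genes with more than 1 tested probe. Points are limma estimates, bars 95% intervals, and filled points have an adjusted p under 0.05. Both Alox5ap probes lie above 0 with all 4 steroids, whereas for Ptges probe 1 is below 0 throughout and probe 3 lies between -0.30 and 0.36.

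Pla2g4a, the phospholipase that supplies arachidonic acid to both branches, was measured by a bright probe at chr1:151676814-151676873 (mm9, minus strand). Vehicle arrays gave 5.11, 4.90 and 4.96 and DEX arrays gave 5.05, 4.55 and 4.68. FF arrays gave 3.95, 4.21 and 4.10, VSG158 arrays 4.37, 4.43 and 4.21, and VSG159 arrays 4.26, 3.90 and 4.29. DEX arrays overlapped vehicle, and the 9 arrays of the other steroids all lay below every vehicle and DEX array. Pla2g4a fell by 0.90 on the log2 scale with FF (SE 0.146, 1.87-fold, limma adjusted p = 0.000296), by 0.65 with VSG158 (1.57-fold, adjusted p = 0.00292) and by 0.84 with VSG159 (1.79-fold, adjusted p = 0.000507). With DEX the difference was -0.23 (95% interval -0.55 to 0.09, adjusted p = 0.214). That DEX result depended on the signal used, since it was -0.62 and called with normexp background correction and quantile normalization (adjusted p = 0.0282) and -0.60 and called in the authors' deposited values (adjusted p = 0.0372). The 3 calls were lost with slide and position, at -0.48, -0.40 and -0.45 for FF, VSG158 and VSG159 (adjusted p = 0.686, 0.201 and 0.466). A dim probe of Pla2g4a, annotated to another transcript, was well above background on 1 vehicle array, no DEX array and 2 arrays each of FF, VSG158 and VSG159. Its differences from vehicle were -0.11, 0.66, 0.48 and 0.45, so for the last 3 steroids opposite in sign to the bright probe, and none was called.

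Ptgs1, cyclooxygenase-1, is the isoform that most cells make without a stimulus. Its brighter probe gave -0.86, -1.31 and -1.23 on vehicle arrays, -0.52, -0.99 and -0.80 with DEX and -0.77, -0.71 and -0.83 with FF. It gave -0.64, -0.78 and -1.41 with VSG158 and -0.99, -1.16 and -0.55 with VSG159. Only the FF arrays lay wholly above the vehicle arrays. The differences from vehicle were 0.37 with DEX (95% interval -0.11 to 0.84), 0.36 with FF (-0.11 to 0.84), 0.20 with VSG158 (-0.28 to 0.67) and 0.23 with VSG159 (-0.24 to 0.71), none called. With DEX the difference became 0.55 (adjusted p = 0.012) under normexp and quantile normalization and 0.61 (adjusted p = 0.0129) in the authors' deposited values, and with VSG158 it became 0.75 (adjusted p = 0.0462) with slide and position. A dim second probe, annotated to an Ensembl transcript of Ptgs1 at chr2:36096929-36096988, gave -7.32, -2.17 and -1.25 on VSG158 arrays. On the other 12 arrays it ranged from -7.31 to -3.99 and was above background on 1 vehicle array. It was called in none of the 10 comparisons.

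Ptges2 encodes a second, membrane-associated prostaglandin E synthase that is regarded as constitutive. Its probe lies at chr2:32257968-32258027 (mm9, plus strand), and the 250 bases before its RefSeq start (GRCm38.p6, chr2:32395640-32395889, plus strand) are shown as those of a gene of this branch that rose.
Ptges2 promoter: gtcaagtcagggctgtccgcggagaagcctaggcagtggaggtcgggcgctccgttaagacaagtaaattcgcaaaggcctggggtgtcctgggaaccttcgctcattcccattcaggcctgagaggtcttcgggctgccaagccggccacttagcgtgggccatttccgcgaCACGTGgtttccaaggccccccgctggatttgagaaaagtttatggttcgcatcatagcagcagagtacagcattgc

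Vehicle arrays gave Ptges2 levels of 1.20, 1.27 and 0.86, and DEX arrays 1.66, 1.69 and 1.56. FF arrays gave 2.25, 2.16 and 2.13, VSG158 arrays 2.10, 1.93 and 1.78, and VSG159 arrays 1.69, 1.66 and 2.31. Every steroid array lay above every vehicle array. Ptges2 rose by 0.53 on the log2 scale with DEX (SE 0.168, 1.44-fold, limma adjusted p = 0.022), by 1.07 with FF (2.11-fold, adjusted p = 0.000234), by 0.82 with VSG158 (1.77-fold, adjusted p = 0.00161) and by 0.78 with VSG159 (1.71-fold, adjusted p = 0.00239). VSG159 replicate 3, the array on the DEX and FF slide, gave 2.31 against 1.69 and 1.66 for the pair on the vehicle slide. With slide as a fixed block the DEX difference turned to -0.11 (SE 0.21, adjusted p = 0.715), and as a random block it was 0.25 (adjusted p = 0.349), so for DEX the direction depends on the fit. The fixed-block estimate rests on VSG159 replicate 3, so slide and that array's own deviation cannot be told apart. The DEX call was also lost without vehicle replicate 3, DEX replicate 1 or DEX replicate 2 (adjusted p = 0.0877, 0.0555 and 0.0596), and with median scaling, no filter, normexp, the deposited values or slide and position. The FF difference with the fixed block was 0.44 (adjusted p = 0.125), and its call was also lost with slide and position. The VSG158 call was lost with median scaling (adjusted p = 0.055), while within slide 1 the VSG158 and VSG159 calls were kept.

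Tbxas1, thromboxane A synthase, had 3 probes, of which 1 array of VSG159 was well above background on 1 probe and no other array on any. Their signals ranged from -7.37 to -4.63. Hpgd, the dehydrogenase that inactivates prostaglandins, had 1 probe that was well above background on none of the 15 arrays, with signals from -7.16 to -4.41. For both genes these are levels not well above background, so no fold is given.

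**Figure D3:**
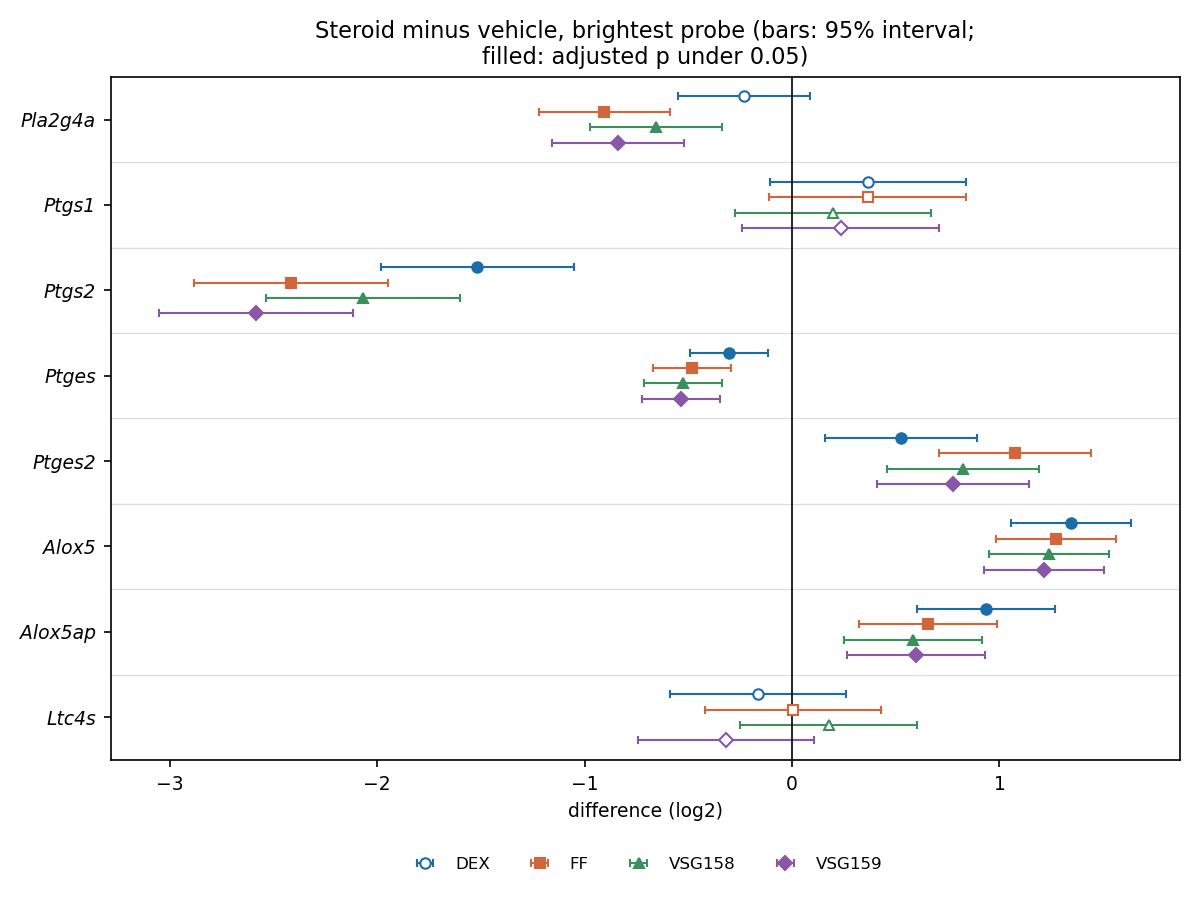
Difference of each steroid from vehicle for the brightest probe of the 8 tested genes (horizontal axis, log2). Points are limma estimates with 95% intervals, and filled points have an adjusted p under 0.05. Ptgs2 lies furthest to the left, from -1.52 with DEX to -2.58 with VSG159, and Alox5 furthest to the right, from 1.22 with VSG159 to 1.35 with DEX.

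In the leukotriene branch, Alox5 and Alox5ap rose with all 4 steroids and Ltc4s was not called. Alox5 encodes 5-lipoxygenase, which forms leukotriene A4. Its probe lies at chr6:116360326-116360385 (mm9, minus strand). Its first 30 bases are shown with the 250 bases before the RefSeq start (GRCm38.p6, chr6:116461179-116461428, minus strand), as those of the gene that rose most among the 10.
Alox5 probe: tttatgcttcctccaattgcttgcatagag
Alox5 promoter: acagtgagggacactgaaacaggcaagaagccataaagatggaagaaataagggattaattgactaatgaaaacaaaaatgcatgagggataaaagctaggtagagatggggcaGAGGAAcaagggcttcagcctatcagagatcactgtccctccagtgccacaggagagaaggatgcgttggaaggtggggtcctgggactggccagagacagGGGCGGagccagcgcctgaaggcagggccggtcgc

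Vehicle arrays gave Alox5 levels of -2.43, -2.48 and -2.30, and DEX arrays -0.86, -1.12 and -1.20. FF arrays gave -1.16, -1.09 and -1.15, VSG158 arrays -0.87, -1.27 and -1.36, and VSG159 arrays -1.22, -1.29 and -1.06. All 12 steroid arrays lay above all vehicle arrays by about the same step, and the 4 steroid groups overlapped each other. Alox5 rose by 1.35 on the log2 scale with DEX (SE 0.133, 2.54-fold, limma adjusted p = 7.67e-06), by 1.27 with FF (2.41-fold, adjusted p = 9.19e-06), by 1.24 with VSG158 (2.36-fold, adjusted p = 1.18e-05) and by 1.22 with VSG159 (2.32-fold, adjusted p = 1.35e-05). The DEX and FF calls were lost only in the fit with slide and position (adjusted p = 0.204 and 0.0576), where the estimates were 2.04 and 1.72. The SE for DEX there was 0.57, against 0.133 without these terms.

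Alox5ap encodes the 5-lipoxygenase-activating protein, which presents arachidonic acid to the enzyme. Both of its probes, at chr5:150099572-150099631 and chr5:150099347-150099406 (mm9, plus strand), were bright. They are shown as a pair of separate readings of the same gene.
Alox5ap probe 1: cttgtaatcagacacgtgttttcctaaaat
Alox5ap probe 2: agagacgcatcataacgcaatgccgcgaag

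On probe 1 vehicle arrays gave 4.13, 4.38 and 4.57, and DEX arrays 5.28, 5.28 and 5.32. FF arrays gave 4.87, 5.05 and 5.12, VSG158 arrays 4.99, 4.94 and 4.89, and VSG159 arrays 5.11, 5.18 and 4.59. The steroid arrays all lay above the vehicle arrays, VSG159 replicate 3 by the least. Probe 1 rose by 0.93 on the log2 scale with DEX (SE 0.152, 1.91-fold, limma adjusted p = 0.000375), by 0.65 with FF (adjusted p = 0.00404), by 0.58 with VSG158 (adjusted p = 0.00784) and by 0.60 with VSG159 (adjusted p = 0.00681). All 4 calls were lost with slide and position, those of VSG158 and VSG159 with median scaling (adjusted p = 0.128 and 0.0578), and that of VSG159 with only the groups compared (adjusted p = 0.0729). With slide as a fixed block the differences were 1.49 with DEX and 1.21 with FF, both called. Probe 2 gave 3.76, 3.87 and 3.98 on vehicle arrays and 3.98 to 4.36 on steroid arrays. It rose by 0.44 with DEX (adjusted p = 0.00195), by 0.33 with FF (adjusted p = 0.0105) and by 0.26 with VSG158 (adjusted p = 0.0348), and with VSG159 it was 0.21 higher without a call (adjusted p = 0.0788). With slide as a fixed block the probe 2 calls of DEX and FF were lost, at 0.38 and 0.27 (limma adjusted p = 0.0909 and 0.224).

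Ltc4s, the synthase that joins leukotriene A4 to glutathione, gave 2.04, 2.30 and 2.80 on vehicle arrays, 2.50, 2.07 and 2.08 with DEX and 2.29, 2.29 and 2.58 with FF. It gave 2.41, 2.74 and 2.51 with VSG158 and 1.87, 2.20 and 2.12 with VSG159. The vehicle arrays spanned nearly the whole range of the steroid arrays. The differences from vehicle were -0.16 with DEX (95% interval -0.59 to 0.26), 0.01 with FF (-0.42 to 0.43), 0.18 with VSG158 (-0.25 to 0.60) and -0.32 with VSG159 (-0.74 to 0.11), none called.

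The 4 steroids were given at the same dose and time, so their arrays were compared directly in 6 pairs, with p-values adjusted over all probes within each pair. Ptgs2 was 0.90 lower on the log2 scale with FF than with DEX (95% interval -1.37 to -0.43, limma adjusted p = 0.0401) and 1.07 lower with VSG159 than with DEX (-1.53 to -0.60, adjusted p = 0.0192). For VSG158 against DEX the Ptgs2 difference was -0.55 (-1.02 to -0.09, adjusted p = 0.215) and was not called, although the arrays did not overlap. These 2 groups share no slide, and with slide as a fixed block the difference turned to 0.17 (adjusted p = 0.763). Pla2g4a was 0.67 lower with FF than with DEX (-0.99 to -0.36, adjusted p = 0.0293) and 0.61 lower with VSG159 than with DEX (-0.93 to -0.29, adjusted p = 0.0378), against a difference of -0.42 for VSG158 (-0.74 to -0.11, adjusted p = 0.163). These were 2 of 8 genes called for FF against DEX, 0 for VSG158 against DEX and 2 for VSG159 against DEX, where 4.08% (2.22% lower), 2.11% and 4.82% (3.50% lower) of all tested genes were called. At an unadjusted p under 0.05, 3, 4 and 4 of the 8 genes passed for FF, VSG158 and VSG159 against DEX, beside 22.1%, 16.5% and 21.8% of all tested genes.

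These calls against DEX were fragile. The slide was shared by DEX and FF but not by DEX and VSG158 or by DEX and 2 of the 3 VSG159 arrays. With slide as a fixed block the FF against DEX differences of Ptgs2 and Pla2g4a were both called (limma adjusted p = 0.0178 and 0.0263). Within slide 2 the FF against DEX difference of Ptgs2 stayed called (-0.90, adjusted p = 0.0356), and that of Pla2g4a was not (-0.67, adjusted p = 0.064). The VSG159 against DEX differences, which there rest on 1 VSG159 array assumed to vary like the other groups, were -0.59 for Ptgs2 (adjusted p = 0.0859) and -0.47 for Pla2g4a (adjusted p = 0.236). With the signal processed otherwise the Pla2g4a difference for FF shrank, to -0.19 with normexp and quantile normalization (adjusted p = 0.638) and -0.24 in the authors' deposited values (adjusted p = 0.556). Each of the 4 calls was also lost when certain single arrays were left out. The Ptgs2 call for FF was lost without vehicle replicate 1 or 2, VSG158 replicate 1, VSG159 replicate 1, or any 1 FF or DEX array (adjusted p = 0.0512 to 0.131). The Ptgs2 call for VSG159 was lost without VSG159 replicate 1 or 2 or DEX replicate 1 or 3 (adjusted p = 0.0619 to 0.0814). The Pla2g4a call for FF was lost without any 1 FF array or DEX replicate 1 or 3 (adjusted p = 0.0796 to 0.112), and that for VSG159 without VSG158 replicate 1, VSG159 replicate 1 or 2, FF replicate 2 or 3, or DEX replicate 1 or 3 (adjusted p = 0.0524 to 0.135).

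For the other genes no difference from DEX was called, but slide as a fixed block changed this for 2 of them. The Ptges2 level was 0.55 higher with FF than with DEX (0.18 to 0.91, adjusted p = 0.0842), a difference that was called within slide 2, where both groups lay (adjusted p = 0.0422), and with slide as a fixed block (adjusted p = 0.026). For VSG158 against DEX, the Ptges2 difference was 0.30 and not called, and 0.93 and called with that block (adjusted p = 0.0451). The block estimate rests on VSG159 replicate 3, which gave a Ptges2 level of 2.31 against 1.69 and 1.66 for replicates 1 and 2. Alox5ap probe 1 was 0.28 lower with FF (-0.61 to 0.05), 0.35 lower with VSG158 (-0.68 to -0.02) and 0.34 lower with VSG159 (-0.67 to -0.00) than with DEX, none called. With slide as a fixed block probe 1 was lower by more and called for VSG158 (-0.91, adjusted p = 0.0414) and VSG159 (-0.71, adjusted p = 0.0491). Probe 2 gave -0.12 and -0.19 in that fit, neither called (limma adjusted p = 0.697 and 0.419). The block estimates for VSG158 and VSG159 rest on VSG159 replicate 3, which gave 4.59 on probe 1 against 5.11 and 5.18 for replicates 1 and 2. For Alox5 the 6 pairwise intervals all lay between -0.42 and 0.27, which bounds any difference between steroids in the fit without slide.

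Among FF, VSG158 and VSG159, limma called none of the 8 genes and none of the 28508 probes in any of the 3 pairs. At an unadjusted p under 0.05 these pairs gave 0, 0 and 2 of the 8 genes for VSG158 against FF, VSG159 against FF and VSG159 against VSG158, beside 6.18%, 5.84% and 5.98% of all tested genes. The 2 genes were Ptgs2, 0.52 lower with VSG159 than with VSG158 (-0.98 to -0.05, adjusted p = 0.85), and Ltc4s, 0.49 lower (-0.92 to -0.07, adjusted p = 0.85). The intervals for Ptgs2 still allow VSG158 to lie up to 0.81 above FF, and VSG159 up to 0.63 below FF, so a lack of a call does not show that the steroids act alike.

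**Figure D4:**
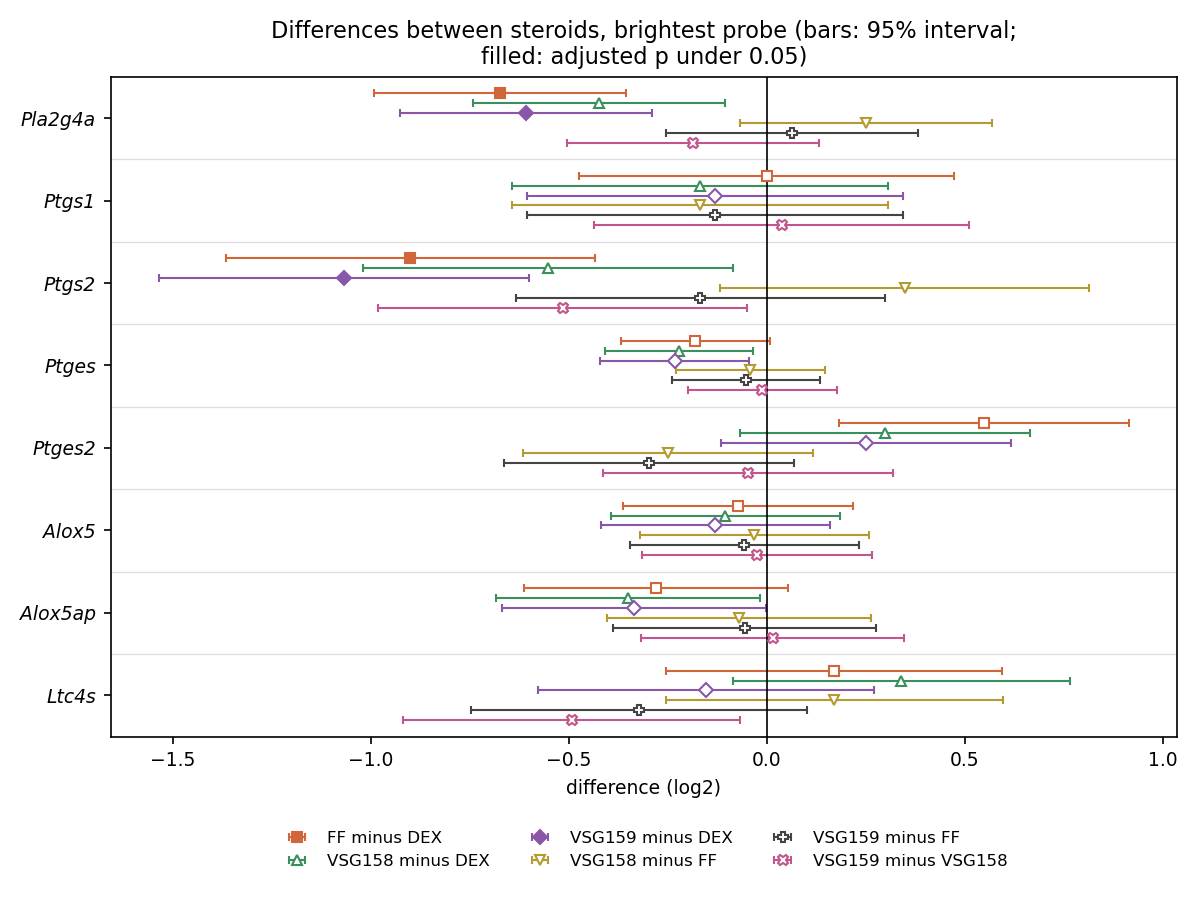
Differences between steroids for the brightest probe of the 8 tested genes in all 6 pairs (horizontal axis, log2). Points are limma estimates with 95% intervals, and the 4 filled points, Ptgs2 and Pla2g4a for FF and for VSG159 against DEX, have an adjusted p under 0.05. For Alox5 all 6 points lie within 0.13 of 0.

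RefSeq upstream windows were at hand for 9 of the 10 genes, and 10 motifs were searched on both strands of the 250 bases before each start. The shares are out of all 32851 windows of this length. The Ptgs2 window holds the C/EBP motif TTGCNNAA from -69 to -62, which 9.56% of all windows hold, the ETS motif GAGGAA from -247 (23.3%) and the GC box GGGCGG from -170 (32.7%). The Ptges window holds the glucocorticoid half-site AGAACA from -191 (16.1%), an ETS motif from -149 and 2 GC boxes from -53 and -42. The Ptges2 window holds the E-box CACGTG from -77 (6.02%), and the Alox5 window an ETS motif from -136 and a GC box from -35. The full palindromic glucocorticoid response element, found in 0.061% of windows, the NF-kB motif (3.90%) and the CRE motif TGACGTCA (1.55%) matched none of the 9 genes' windows, and the AP-1 motif TGANTCA (6.75%) and the TATA motif TATAAA (12.4%) matched those of Tbxas1. The second window of Pla2g4a holds TATAAA and AGAACA, its first holds no match. The window of Ptgs1, which was not called, also holds AGAACA, from -204, and an ETS motif from -24. The Hpgd window holds an ETS motif from -230 and a GC box from -50, and the Tbxas1 window an ETS motif from -19. The Ltc4s window holds no match. A match is a string of letters and not a site shown to be used.

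Over the 15 arrays, the 3 genes whose levels ran most like Ptgs2 were Mgarp, Mfsd9 and Bhlhe40 (Pearson r = 0.99 each), out of 12588 named genes. Those most like Alox5 were Prkar2b, Mrpl15 and Nudt6 (r = 0.99 each), those most like Ptges were Eif1b, H3f3b and Uba7 (r = 0.98, 0.98 and 0.97), and those most like Ptges2 were Gatb, Cars2 and Pmf1 (r = 0.98, 0.97 and 0.97). For Alox5ap they were Prpf8, Pex14 and Ptpmt1 (r = 0.98, 0.97 and 0.97), and for Pla2g4a Cln8, Cd200r1 and Nabp1 (r = 0.98 each). For the 2 genes not called, the leading values were lower, at r = 0.95 for Coq3 with Ptgs1 and r = 0.92 for Uncx with Ltc4s. All points share the same arrays, and the vehicle and steroid groups form separate clusters, so these values are a description of likeness only.

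Of 65 other genes of the eicosanoid pathway, all on the array, 47 were tested. With DEX 11 rose and 11 fell, with FF 10 rose and 13 fell, with VSG158 9 rose and 14 fell and with VSG159 7 rose and 14 fell. The share called, 22 of 47 with DEX, is near the background given above. Their median difference lay between -0.09 and -0.03 in the 4 comparisons. No gene was called in opposite directions by different steroids, and 12 were called the same way by all 4 with a difference of at least 0.5 in each.

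Of the other phospholipases, listed together with lipases and genes of acyl remodelling, 16 genes were tested. Of these 2 rose and 5 to 6 fell with DEX, FF and VSG158, and 1 rose and 6 fell with VSG159. Pla2g7, the lipoprotein-associated phospholipase that hydrolyses platelet-activating factor, rose on the log2 scale by 1.61, 2.13, 2.01 and 1.74 with DEX, FF, VSG158 and VSG159 (SE 0.116). Its vehicle arrays gave -3.65, -3.76 and -3.82 and its steroid arrays -2.21 to -1.47. The secreted phospholipase Pla2g2e fell by 0.57 with DEX and by 1.06, 1.10 and 1.12 with FF, VSG158 and VSG159, and it was lower with each of these 3 than with DEX (limma adjusted p = 0.0414, 0.041 and 0.0246). These calls against DEX were fragile as well. The FF call was lost with median scaling, where no probe was called for FF against DEX. The VSG158 and VSG159 calls were lost with only the groups compared, where no probe was called for either against DEX. Pla2g15, a lysosomal phospholipase, fell by 0.61 to 0.92, and Plaat3, which the array names Pla2g16, by 0.76 to 0.88.

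Of 7 other prostaglandin synthases tested, 3 rose and 1 fell with DEX, FF and VSG158, and 2 rose and 1 fell with VSG159. Hpgds, the haematopoietic prostaglandin D synthase, fell by 1.13, 1.39, 1.13 and 1.35 with DEX, FF, VSG158 and VSG159 (SE 0.137, limma adjusted p at most 3.94e-05). Prxl2b, a prostaglandin F synthase that the array names Fam213b, rose by 0.85 to 1.05, with 0.27 and 0.47 and no call for DEX and FF once slide was a fixed block (adjusted p = 0.545 and 0.302).

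Of 9 other lipoxygenase and leukotriene enzymes tested, 3 rose with each steroid, and 1 fell with DEX and FF and 2 with VSG158 and VSG159. Mgst2, a microsomal glutathione S-transferase that can also form leukotriene C4, rose by 1.64, 2.11, 2.12 and 1.97 with DEX, FF, VSG158 and VSG159 (SE 0.115), from 0.80 to 1.17 on vehicle arrays to 2.58 to 3.22 on steroid arrays. The dipeptidases Dpep1 and Dpep2, of a family that cleaves leukotriene D4, went opposite ways. Dpep2 rose by 0.77 to 1.05, while Dpep1 was above background on all 3 vehicle arrays and on none of the 12 steroid arrays, which bounds its fall at at least 1.21-fold with DEX, 1.48-fold with FF, 1.05-fold with VSG158 and 1.65-fold with VSG159. For each bound, a steroid array counted at its detection floor (its dimmest well-measured probe) or at the Dpep1 signal, whichever was higher. Dpep1 passed the filter only through its vehicle arrays, so its calls are no separate test of that fall. Of 8 genes of inactivation and transport, 3 rose with DEX and 1 with each other steroid, and 1 fell with each. The leukotriene C4 exporter Abcc1 fell by 1.27, 0.93, 0.95 and 1.14 with DEX, FF, VSG158 and VSG159, although another probe of it was called higher with DEX.

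Of 10 genes listed as prostanoid receptors, among them Ptgfrn, which is not itself such a receptor, 5 were tested, all of them receptors. Of these 2 fell with DEX, 1 rose and 3 fell with FF, and 3 fell with VSG158 and with VSG159. Of 4 leukotriene receptors 2 were tested, and 1 fell with each steroid. Ptger2, an E2 receptor that signals through cyclic AMP, fell by 0.93, 1.51, 1.47 and 1.90 with DEX, FF, VSG158 and VSG159 (SE 0.179), and it was 0.97 lower with VSG159 than with DEX (limma adjusted p = 0.0149). Ptger4, the other such E2 receptor, fell by 0.53, 0.54, 0.47 and 0.63. The prostacyclin receptor Ptgir gave 2.50, 2.32 and 2.44 on vehicle arrays and 2.52, 2.27 and 2.23 with DEX, which was not called. It fell by 0.79 with FF, 0.51 with VSG158 and 0.74 with VSG159. Against DEX it was 0.71 lower with FF and 0.66 lower with VSG159 (adjusted p = 0.0336 and 0.0385). The Ptger2 and Ptgir calls of VSG159 against DEX were lost with only the groups compared, and the Ptgir call of FF against DEX with median scaling. In those fits no probe was called for that pair. Cysltr1, a cysteinyl leukotriene receptor, fell by 1.41 with DEX and by 0.67, 0.83 and 0.85 with FF, VSG158 and VSG159. Ptger1, the receptor counted as higher with FF, was above background on the 3 FF arrays and 1 DEX array only. It was at least 1.65-fold higher with FF than with vehicle (limma adjusted p = 0.0265, and 0.0671 with slide as a fixed block). Because Ptger1 passed the filter only through its FF arrays, these p-values are no separate test of that rise. Ptgdr2 and Ltb4r1 were called with no steroid. With slide and position in the fit, the directions of Ptger2 with DEX, of Ptger4 with DEX and FF, of Pla2g15 with DEX and of Cysltr1 with FF turned, and none of these was called there.

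**Figure D5:**
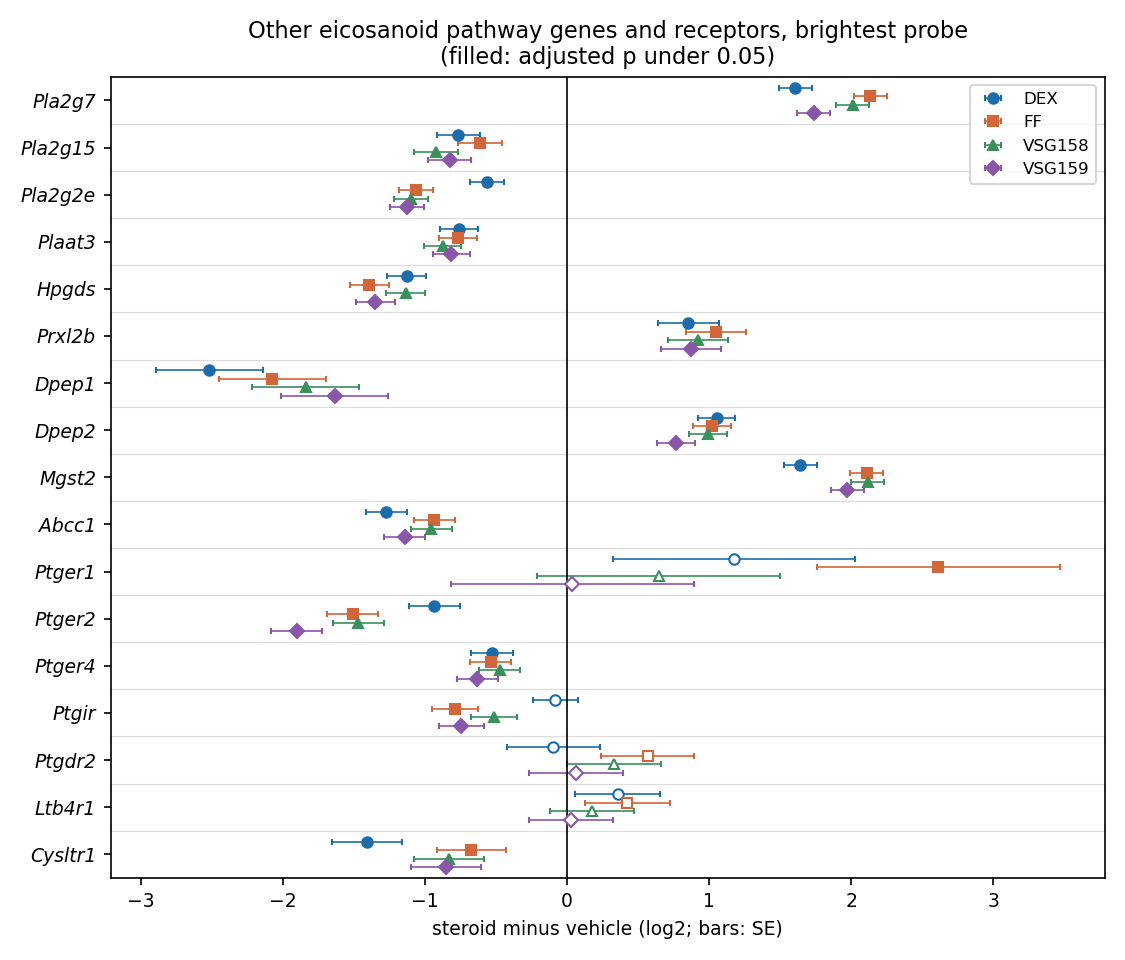
Difference of each steroid from vehicle for the 17 other pathway genes named by the rule, on the brightest probe (horizontal axis, log2). Points are limma estimates, bars SE, and filled points have an adjusted p under 0.05. Dpep1 with all 4 steroids and Ptger1 are shown at fitted values that include arrays not well above background, for which only the bounds in the text hold. Pla2g7 and Mgst2 lie between 1.61 and 2.13 with all 4 steroids, and Hpgds between -1.39 and -1.13.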

How the data were processed

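The 15 one-colour (Cy3) Agilent mouse arrays fall into 5 groups of 3 by their titles. The authors extracted signals with Feature Extraction 10.7.3.1 per the file headers, on a design that names build mm9, and the deposited scanner files hold background-subtracted intensity values. The authors' deposited value table holds log2 values, whose link to the scanner signals (r = 0.988 to 0.994) was found by comparison and whose normalization is not given in the sources used here. The submitters' processing notes name limma, with no version.

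Control spots (3671 per array) and outlier spots were left out, log2 intensity was scaled to each array's 75th percentile, and limma 3.58.1 in R 4.3.3 was fitted to all 15 arrays with group as the only term (10 residual degrees of freedom). Testing required a signal well above background on 2 or more arrays of any 1 group. Missing values remained for 2298 entries of the tested probes, none in a member. No array count gives a depth, and the number of arrays limits the precision.

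The 10 genes, the pathway lists, the tests and the 30 alternatives were chosen with earlier results of these data known. Named pathway genes were those called the same way by all 4 steroids with a log2 difference of at least 0.5 in each, those called in opposite directions, and every tested receptor. The 3 most alike genes were taken by Pearson r among tested genes with all 15 values. Promoter windows are RefSeq's for GRCm38.p6 and probe positions are the array's in mm9; they were not converted. Exon annotation of mm9 and protein sequences were not used here.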

Additional observations from a re-analysis of the deposited data

How the results depend on the processing

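Counts below are differences with limma's adjusted p under 0.05. Of the 23 member calls against vehicle, over all alternatives that gave a value (656 values), 618 kept direction and call, 37 kept direction without the call and 1 turned, Ptges2 for DEX with slide as a fixed block (-0.11). All 12 calls of VSG158 and VSG159 were kept within slide 1. Fits with slide and position lost 14 calls and median scaling 8. Slide and position overlap with group, and SEs were wide in that fit, at 0.77 for Ptgs2 and 0.57 for Alox5 with DEX. A call lost there does not show that the difference is absent.

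Against vehicle, the 5 members called with DEX became 3 with median scaling, without a filter and with slide as a fixed or random block, and 0 with slide and position. They became 4 with only the groups compared, and 6 with normexp or the deposited values. The 6 with FF became 5 with median scaling, 4 with slide as a fixed block and 1 with slide and position. The 6 with VSG158 became 3 with median scaling and 5 with slide and position. The 6 with VSG159 became 4 with median scaling and with slide and position, and 5 with only the groups compared. Against DEX, the 2 members called with FF became 0 with median scaling, quantile normalization, no filter, and slide and position, and 1 with normexp or the deposited values. They became 3 with slide as a fixed or random block. The 2 called with VSG159 became 0 with median scaling, no filter, slide as a random block, within slide 2, slide and position, and only the groups compared, and 1 (Ptgs2) with quantile normalization, normexp and the deposited values. With slide as a fixed block neither of these 2 remained called, and the 1 called for VSG159 was Alox5ap. For VSG158 against DEX that block gave 2 (Ptges2 and Alox5ap) where the fit without it gave 0. With that block the VSG158 and VSG159 differences from DEX rest on VSG159 replicate 3.

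Probes called against vehicle numbered 13420, 12270, 12990 and 12804 for DEX, FF, VSG158 and VSG159, and became 7835, 7211, 7877 and 7283 with median scaling and 39, 1322, 8300 and 3690 with slide and position; averaging to genes gave 8624 for VSG158. Against DEX, 1216 probes for FF, 681 for VSG158 and 1360 for VSG159 became 0, 28 and 42 with median scaling, 707, 419 and 575 with normexp, 532, 371 and 488 in the deposited values, and 146, 119 and 149 without a filter. Averaging to genes gave 807 for FF and 388 for VSG158 against DEX. Slide as a fixed block gave 1978 for FF and 535 for VSG159 against DEX, 5 for VSG158 against FF and 35 for VSG159 against VSG158. Slide as a random block gave 0 for VSG158 and 307 for VSG159 against DEX, slide and position 1, 0 and 0, within slide 2 VSG159 gave 2, and only the groups compared gave 0 for VSG158 and for VSG159. Median scaling gave 2 for VSG159 against FF.

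Other pathway genes called numbered 22, 23, 23 and 21 for DEX, FF, VSG158 and VSG159, and became 12, 10, 11 and 8 with median scaling and 0, 2, 14 and 3 with slide and position. In that fit Pla2g15 (0.0054), Ptger2 (0.43) and Ptger4 (0.40) turned for DEX, and Ptger4 (0.041) and Cysltr1 (0.16) for FF.

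Quantile normalization moved the share of called probes that were higher with FF than DEX from 55.3% to 68.4%. Median scaling moved the median of all probes from -0.05 to -0.16 for VSG158 against FF and from -0.02 to 0.12 for VSG159 against VSG158.

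The replicate numbers did not pair the arrays, since no comparison had every same-numbered correlation above 0.1 and 1 of 15 arrays correlated best with one of its own number. With the replicate number as a block, all 23 member calls against vehicle were kept, members called against DEX became 0 for FF and 1 for VSG159, and probes called against DEX became 540 for FF, 408 for VSG158 and 742 for VSG159.

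Leaving out each array in turn gave 3 to 5 members for DEX against vehicle, 6 to 6 for FF, VSG158 and VSG159 against vehicle, 0 to 3 for FF, 0 to 0 for VSG158 and 0 to 2 for VSG159 against DEX, and 0 to 0 in the other pairs. Probes ranged from 11154 to 14438, 10500 to 13062, 11111 to 13773 and 10768 to 14567 against vehicle in the order above, from 165 to 1930, 158 to 889 and 244 to 1892 against DEX, and from 0 to 42, 0 to 74 and 0 to 51 for VSG158 against FF, VSG159 against FF and VSG159 against VSG158. Pathway genes ranged from 19 to 25, 18 to 25, 17 to 24 and 17 to 23 against vehicle. The causes of these changes were not tested.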
